A study of Mus musculus with 8 samples.

Results

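Actb and Actg1, the cytoplasmic actins, and 6 genes for proteins that bind actin were followed through ribosome footprint libraries of the newborn mouse brain. The binding proteins were thymosin beta 10 (Tmsb10), thymosin beta 4 (Tmsb4x), cofilin 1 (Cfl1), profilin 1 (Pfn1), profilin 2 (Pfn2) and drebrin (Dbn1). The genes were chosen by name as abundant parts of the actin system, with the profilins and cofilin included because they have been linked to SMN. Each gene was found in the table by its transcript names, and its most covered protein-coding transcript over the 8 libraries stood for it. The 8 genes are 8 of the 21874 genes with a protein-coding transcript in the table, and all 8 passed the filter on low counts in each comparison.

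The study profiled ribosome-protected fragments, the stretches of mRNA that a ribosome shields from nuclease, in mouse brain at postnatal day 5. Animals were congenic FVB mice of the Taiwanese model of SMA (spinal muscular atrophy), in which motor neurons degenerate because the survival motor neuron protein, SMN, is scarce. Diseased brains (Smn-/-; SMN2tg/0), labelled early symptomatic, lack the mouse gene and depend on 2 copies of human SMN2 on 1 allele. They gave 2 RiboLace libraries and 2 polysome libraries. Control brains (Smn+/-; SMN2tg/0), from phenotypically normal littermates that carry the same transgene, gave 3 libraries of ribosomes pulled down with an antibody to SMN (SMN IP) and 1 pulled down with IgG (IgG IP). RiboLace captures ribosomes in the act of translation, while the polysome libraries come from the polysome part of a sucrose gradient. For the IPs the lysate was first digested with RNase I and the ribosomes pelleted. The Smn alleles are carried in the germline, so the genotype singles out no cell type. Libraries of a group are called biological replicates in the labels, and whether each is 1 brain is not stated there.

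Actin cycles between free monomers and filaments. Profilins load monomers for assembly and thymosins hold monomers back from it, whereas cofilin cuts filaments and returns monomers to the pool. Drebrin binds along the sides of filaments in neurons and is known for its place in growth cones and dendritic spines. In the nervous system the Actb mRNA is carried into axons, and profilin 2 is a brain form of profilin that binds SMN directly.

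The libraries differed in depth. Over 1 transcript per coding gene, the SMN IPs held 133295 to 237760 reads, the IgG IP 206690, the RiboLace libraries 39375 and 47846 and the polysome libraries 1661834 and 2295393. Levels are given as reads per 1e+06 of these totals (CPM), so that 1 read was worth 20.9 and 25.4 CPM in the RiboLace libraries and under 1 CPM in the polysome libraries. SMN IP replicate 2 stood apart from the other SMN IPs. The chi-square of its counts against theirs was 3.18 and 3.26 per gene, while replicates 1 and 3 gave 1.34. The tissue label was checked on marker genes: all 6 neuron markers had reads in every library, and their summed level was 7104 to 7609 CPM in the SMN IPs, 7649 in IgG, 8863 and 9614 in RiboLace and 4824 and 5238 in polysomes. The libraries are bulk brain, so a change in the number of cells of a type and a change per cell cannot be told apart.

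The 8 genes together took 0.799% to 1.28% of coding reads in the SMN IPs, 1.24% in the IgG IP, 1.13% and 1.10% in RiboLace, and 0.465% and 0.412% in polysomes. Polysomes were therefore the lowest group for the sum, with no overlap with any other. The plot of each gene's level by library shows that the genes did not move as 1 block. The actins and Tmsb10 were high in both IPs and in RiboLace, Tmsb4x and Cfl1 were high in RiboLace, and Dbn1 was high in both IPs and low in RiboLace.

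**Figure D1:**
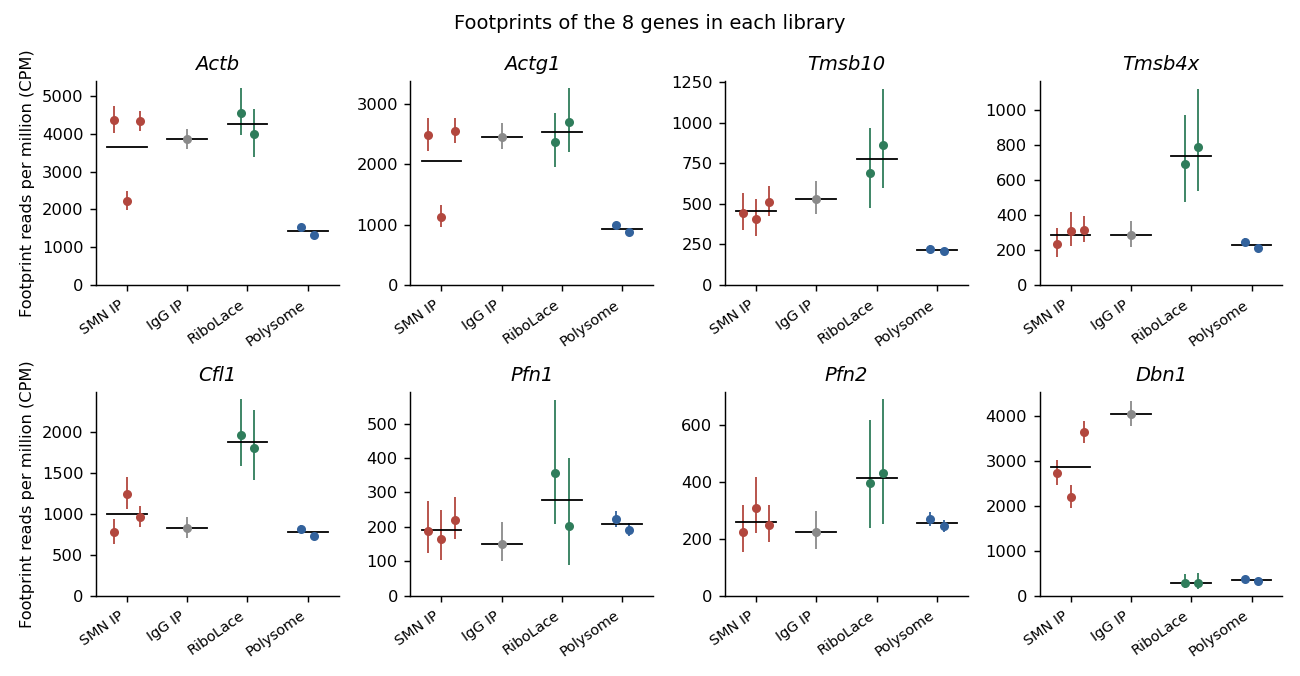
Footprint level (CPM, linear axes from 0) of each gene in each library, by group. Points are libraries, vertical lines are 95% Poisson intervals that cover counting error only, and horizontal lines are group means. Dbn1 lies between 2206 and 4050 CPM in the IPs and between 279 and 365 CPM elsewhere.

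Actb, the main cytoplasmic actin, lies on chromosome 5 at chr5:142903115-142907976 (RefSeq, GRCm38.p6, which shares its chromosome coordinates with the GRCm38.p4 build named by the submitters). Its chosen transcript, Actb-001, is 1920 nt long, with 109 nt of 5′ UTR, 1128 nt of coding sequence and 683 nt of 3′ UTR. Actb stood at 4369, 2221 and 4345 CPM in SMN IP replicates 1 to 3, 3851 in IgG, 4556 and 3987 in RiboLace, and 1525 and 1331 in polysomes. Polysomes were lowest, IgG lay inside the range of the SMN IPs, and SMN IP replicate 2 fell between polysomes and the remaining libraries.

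Actg1, the second cytoplasmic actin, lies at chr11:120345687-120348495. Actg1-001 is 1952 nt long, with a coding sequence of the same 1128 nt. Its promoter is shown because it was the only 1 of the 7 genes with a promoter window (9 windows; none for Actb) to hold a CArG box, the site that serum response factor binds in many actin genes. Both strands were searched, over 250 bases before to 50 after each start in RefSeq, and 1.63% of all 32851 windows of that length hold a match. The 30 bases around it, at chr11:120348566-120348595 on the minus strand (GRCm38.p6), are written 5′ to 3′ with the box in capitals.
Actg1 promoter: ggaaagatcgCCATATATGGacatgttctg
The box begins 90 bases before the start site, and footprints do not read promoters, so the match is a description of the gene only. Actg1 stood at 2481, 1133 and 2553 CPM in the SMN IPs, 2458 in IgG, 2362 and 2692 in RiboLace, and 989 and 871 in polysomes. As for Actb, polysomes were lowest and SMN IP replicate 2 was the lowest of the other libraries.

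The thymosins are encoded by very short coding sequences of 135 nt each. Tmsb10 (chr6:72957347-72958748; Tmsb10-001, 570 nt) stood at 441, 405 and 513 CPM in the SMN IPs, 532 in IgG, 690 and 863 in RiboLace, and 223 and 208 in polysomes. Its groups did not overlap, in the order RiboLace, IgG, SMN IP and polysome. Tmsb4x (chrX:167207093-167213479; Tmsb4x-001, 768 nt) stood at 231, 308 and 315 CPM in the SMN IPs, 285 in IgG, 690 and 787 in RiboLace, and 243 and 213 in polysomes. Only the RiboLace libraries stood above the rest, and the SMN IP range overlapped both IgG and polysomes.

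Cfl1, the non-muscle cofilin (chr19:5490455-5494031; Cfl1-201, 1148 nt, 684 nt coding), has a single transcript in the table. It stood at 774, 1245 and 959 CPM in the SMN IPs, 822 in IgG, 1965 and 1803 in RiboLace, and 817 and 730 in polysomes. RiboLace was highest, and SMN IP replicate 2, lowest of its group for the actins, was highest of its group for Cfl1.

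The profilins had the lowest levels per coding kilobase of the 8 genes in the IPs. Pfn1 (chr11:70651844-70656799; Pfn1-001, 861 nt, 423 nt coding) stood at 188, 165 and 219 CPM in the SMN IPs, 150 in IgG, 355 and 203 in RiboLace, and 223 and 192 in polysomes. The RiboLace values rest on 17 and 8 reads and overlapped polysomes. Pfn2 (chr3:57841895-57847757; Pfn2-001, 2342 nt, also 423 nt coding) stood at 224, 308 and 248 CPM in the SMN IPs, 223 in IgG, 397 and 432 in RiboLace, and 269 and 246 in polysomes. Its RiboLace values, from 19 and 17 reads, were above all others, while SMN IPs and polysomes overlapped.

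Dbn1 (chr13:55473428-55488126; Dbn1-002, 2940 nt, 1983 nt coding) had the longest coding sequence of the 8. It stood at 2734, 2206 and 3642 CPM in the SMN IPs, 4050 in IgG, 293 and 279 in RiboLace (14 and 11 reads), and 365 and 325 in polysomes. The IgG IP was higher than every SMN IP, and RiboLace was lower than every polysome library, although the counting intervals of the latter overlap.

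Set per kilobase of coding sequence, the order of the genes differed by group. In polysomes the thymosins led, with Tmsb4x at 1691 ± 155 (SD, n = 2) and Tmsb10 at 1597 ± 81 CPM per coding kb, overlapping each other. They were followed by Actb at 1266 ± 122 and Cfl1 at 1131 ± 90, which also overlapped, then by Actg1 at 824 ± 74, Pfn2 at 608 ± 39, Pfn1 at 490 ± 51 and Dbn1 at 174 ± 14. RiboLace kept the thymosins first, with Tmsb10 at 5753 ± 910 and Tmsb4x at 5470 ± 511 (SD, n = 2), overlapping, and Dbn1 last at 144 ± 4.7. In the SMN IPs Tmsb10 stood at 3357 ± 407 and Actb at 3231 ± 1094 (SD, n = 3), ahead of Tmsb4x at 2110 ± 344, Actg1 at 1822 ± 709, Cfl1 at 1451 ± 347 and Dbn1 at 1443 ± 366. Neighbours in this order overlapped each other down to Cfl1 and Dbn1, while Tmsb10 lay above Tmsb4x, Actg1, Cfl1 and Dbn1 without overlap. Pfn2 at 615 ± 101 and Pfn1 at 451 ± 64 came last there, as in the IgG IP, where they stood at 526 and 355.

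The SMN IPs were compared with the IgG IP to ask which footprints the SMN antibody recovers beyond those that IgG recovers. None of the 8 genes was called different at an adjusted p under 0.05 (edgeR quasi-likelihood, Benjamini-Hochberg). Over all 5517 genes tested the calls were 0% higher and 0.0181% lower, with 99 genes higher and 49 lower at an unadjusted p under 0.05 and none of the 8 among them. The log2 fold change (SMN IP over IgG IP) was -0.06 for Actb, with a 95% interval of -0.95 to 0.83, and -0.24 for Actg1 (-1.12 to 0.64). It was -0.21 for Tmsb10 (-1.11 to 0.69), 0.02 for Tmsb4x (-0.94 to 0.98) and 0.29 for Cfl1 (-0.63 to 1.20). For the profilins it was 0.37 for Pfn1 (-0.67 to 1.42) and 0.24 for Pfn2 (-0.76 to 1.23). Dbn1 had the lowest value, -0.48 (-1.35 to 0.38), with 3289 ± 814 TMM-scaled CPM (SD, n = 3) in the SMN IPs and 4605 in IgG. The median over the 8 genes was -0.02, against 0.03 over all genes tested. The spread of the only IgG library was taken from the SMN IPs. Without SMN IP replicate 2 the SE of Actb fell from 0.45 to 0.20, and the sign of both actins turned, to 0.18 ± 0.20 (SE) for Actb and 0.038 ± 0.21 for Actg1, still with no call.

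**Figure D2:**
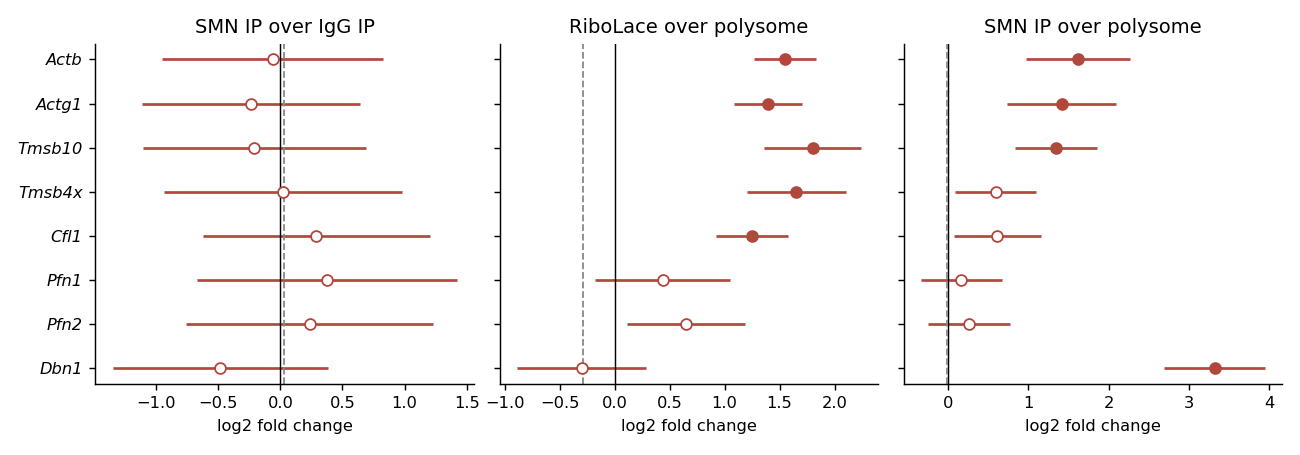
Log2 fold change of each gene in the 3 comparisons (edgeR), with 95% intervals. Filled points passed an adjusted p of 0.05, open points did not, and the dashed line is the median of all genes tested. All 8 points are open for SMN IP over IgG IP, 5 are filled for RiboLace over polysome and 4 for SMN IP over polysome.

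RiboLace was compared with polysomes in the same genotype, which sets ribosomes captured in the act of translation against all ribosomes of the polysome fraction. In RiboLace the footprints of both actins, both thymosins and cofilin 1 were 2.4- to 3.5-fold higher. These 5 of the 8 genes were called higher and none lower, where 1.31% of the 10807 genes tested were called higher and 0.925% lower. Many genes tested here had few RiboLace reads. Among the 1003 genes at or above the mean level of the least covered of the 8 genes, 7.58% were called higher. The median log2 fold change over the 8 genes was 1.32, against -0.29 over all genes tested and -0.19 over those 1003. With the 779 genes that had no RiboLace read set at a floor of 3 counts over the group, or at 0 where that floor exceeds their polysome level, the median over all genes was -0.15. Higher calls varied with coding length, with 11 of 238 genes under 300 nt and 50 of 1265 from 300 to 600 nt. From 600 to 1200 nt they were 38 of 2960, from 1200 to 2400 nt 30 of 3889, and from 2400 nt 13 of 2455. The part of length in the values of the 8 genes was not tested.

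Tmsb10 had the largest of the 8 values, 1.80 ± 0.22 on the log2 scale (SE, adjusted p = 6.38e-13), followed by Tmsb4x at 1.65 ± 0.23 (adjusted p = 1.38e-10). Actb was higher by 1.55 ± 0.14 (adjusted p = 3.22e-24) and Actg1 by 1.40 ± 0.16 (adjusted p = 4.21e-16). Cfl1 was higher by 1.25 ± 0.17 (adjusted p = 4.22e-11). For each of these 5 genes every RiboLace library lay above every polysome library.

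The profilins did not pass the test: Pfn2 gave 0.65 ± 0.27 (adjusted p = 0.211) and Pfn1 0.44 ± 0.31 (adjusted p = 0.501). Pfn2 passed it with its coding transcripts summed (0.92, adjusted p = 0.000892) and with a minimum count of 50 (0.88, adjusted p = 0.0279), and Pfn1 turned to -0.15 without RiboLace replicate 1. Dbn1 gave -0.30 ± 0.30, with an interval of -0.89 to 0.29 (adjusted p = 0.689). Cfl1 was no longer called without RiboLace replicate 1 (1.09, adjusted p = 0.0804), and limma-voom called none of the 5 (adjusted p of 0.192 to 0.198) and no gene in either direction over the whole table.

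Of the 9 marker lists, those of blood, neurons, astrocytes with radial glia, and mural cells were higher in RiboLace without overlap, and that of endothelial cells was lower. The summed level of 5 erythroid markers was 5267 and 6375 CPM in RiboLace and 1910 and 2589 CPM in polysomes, with Alas2 at 0 in both RiboLace libraries. Neuron markers are given above. Astrocyte and radial glia markers summed to 3135 and 2540 CPM against 2054 and 2164, mural markers to 146 and 203 against 144 and 135, and endothelial markers to 209 and 127 against 229 and 220. The mural and endothelial sums rest on few RiboLace reads. Acta2, itself an actin, held 62.7 and 177.8 CPM of the mural sums there, from 3 and 7 reads. Tagln was at 0 in RiboLace replicate 1, and Myh11 and Pdgfrb were at 0 in replicate 2. Of the endothelial markers, Pecam1 was at 0 in both RiboLace libraries and Flt1 in replicate 2. The part of these marker lists in the values of the 8 genes was not tested. Microglia markers were low in both, at 167 and 229 CPM against 189 and 181, with Tmem119 and Aif1 at 0 in both RiboLace libraries.

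**Figure D3:**
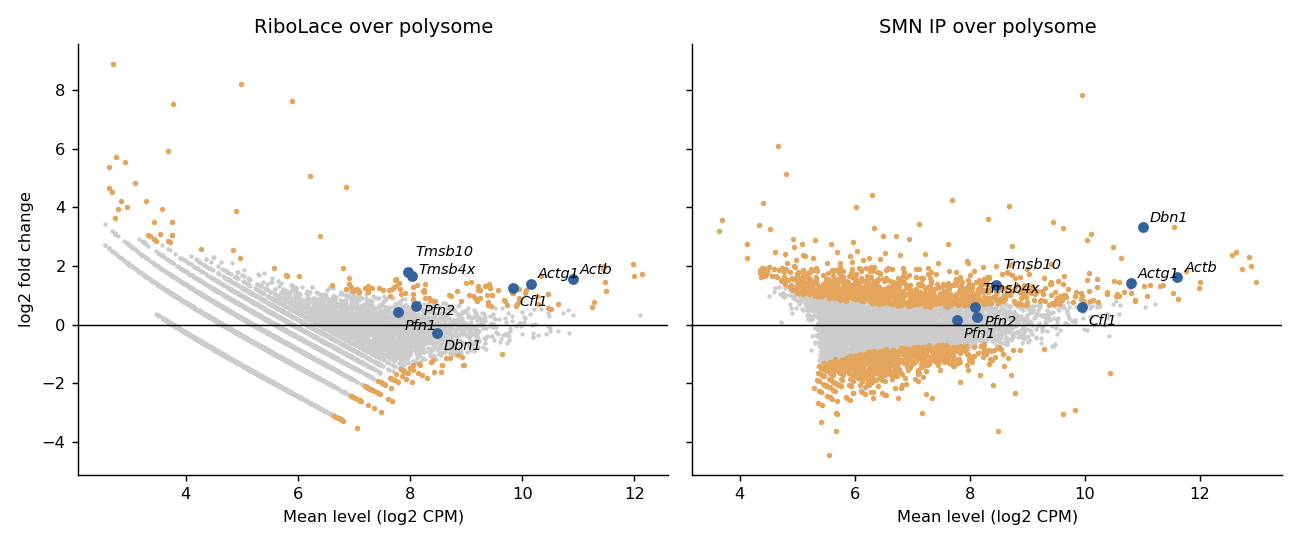
Log2 fold change against mean level (log2 CPM) for all genes tested in RiboLace over polysome (left) and SMN IP over polysome (right). Blue points are the 8 genes, orange points are other genes past an adjusted p of 0.05, and grey points are the rest; genes without a read in 1 of the groups are not drawn. Dbn1 lies slightly below 0 on the left and at 3.32 on the right.

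The SMN IPs were also set against polysomes. These groups differ in genotype and in protocol, which cannot be told apart, and the comparison shares its SMN IP and polysome libraries with those above. Dbn1 footprints, those of drebrin, were 10-fold higher in the SMN IPs, and both actins and Tmsb10 were 2.5- to 3.1-fold higher. In all, 4 of the 8 genes were called higher and none lower, where 16.4% of the 6484 genes tested were called higher and 11.1% lower. The median over the 8 genes was 0.98, against -0.02 over all genes. Among the 1016 genes at or above the level of the least covered of the 8, 25% were called higher and the median was 0.22. With library totals in place of TMM scaling the median over all genes moved to -0.31 and the calls to 636 higher and 1578 lower, from 1062 and 719, while 4 of the 8 genes were called still.

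Dbn1 was higher by 3.32 ± 0.30 (SE, adjusted p = 3.44e-06) on the log2 scale, rank 15 of the 6484 genes by this value. Its TMM-scaled level was 3444 ± 866 CPM (SD, n = 3) in the SMN IPs and 346 ± 29 CPM (n = 2) in polysomes. Actb was higher by 1.62 ± 0.31 (adjusted p = 0.00213), Actg1 by 1.42 ± 0.32 (adjusted p = 0.00602) and Tmsb10 by 1.35 ± 0.24 (adjusted p = 0.00138). Tmsb4x at 0.59 ± 0.24 (adjusted p = 0.0768) and Cfl1 at 0.62 ± 0.26 (adjusted p = 0.0828) did not pass, nor did Pfn2 at 0.27 (adjusted p = 0.417) and Pfn1 at 0.17 (adjusted p = 0.616).

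Without SMN IP replicate 2, Dbn1 gave 3.47, Actb 1.84, Actg1 1.67 and Tmsb10 1.41, and 6 of the 8 genes were called, with Tmsb4x at 0.56 (adjusted p = 0.0165) and Cfl1 at 0.43 (adjusted p = 0.0148) added. Without SMN IP replicate 3 Actg1 was lost (1.20, adjusted p = 0.0666), without polysome replicate 1 Actg1 and Tmsb10 were lost, and without polysome replicate 2 Dbn1 was the only 1 called (3.18, adjusted p = 3.91e-06).

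The IgG IP had no test against polysomes, but its levels stood beside those of the SMN IPs for each gene. The ratios here are of mean CPM over polysomes from library totals, without the TMM scaling of the tests. With that scaling, SMN IP over polysomes was 9.99 times for Dbn1, 1.51 for Tmsb4x, 1.53 for Cfl1 and 1.12 for Pfn1. By library totals Dbn1 was 8.30 times as high in the SMN IPs, 11.8 times in the IgG IP and 0.830 times in RiboLace. Actb was 2.55, 2.70 and 2.99 times as high in the same order, and Actg1 2.21, 2.64 and 2.72 times. Tmsb10 was 2.10, 2.47 and 3.60 times as high, whereas Tmsb4x, at 1.25, 1.25 and 3.23 times, was high by this measure in RiboLace alone. Cfl1 was 1.28, 1.06 and 2.44 times as high. The ratios were 0.919, 0.723 and 1.35 for Pfn1 and 1.01, 0.865 and 1.61 for Pfn2. The high Dbn1 level was thus measured in the pulldown with IgG as well as in those with the SMN antibody.

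Coding length moved with this contrast over all genes. The median log2 fold change of the SMN IPs over polysomes was -0.59 for genes with under 300 nt of coding sequence, -0.34 from 300 to 600 nt, -0.31 from 600 to 1200 nt, -0.05 from 1200 to 2400 nt and 0.54 from 2400 nt. Dbn1, at 3.32, belongs to the class from 1200 to 2400 nt, Actb and Actg1 to that from 600 to 1200 nt, and Tmsb10 to the shortest. The part of length in their values was not tested. Meningeal fibroblast markers ranged from 911 to 2243 CPM in the SMN IPs, stood at 1374 in IgG, and were 631 and 867 in polysomes. Progenitor and cell cycle markers, at 593, 735 and 362 CPM in the SMN IPs and 392 in IgG, also lay above the 279 and 301 of polysomes, as did the neuron markers given above. The part of these lists was not tested either.

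The transcripts of Dbn1 were looked at one by one after these values were seen. The same reads can be counted on several transcripts, so they are not independent. Dbn1-001, Dbn1-002 and Dbn1-009, the 3 long coding forms of 3078, 2940 and 2378 nt, were 9.07, 8.85 and 9.10 times as high in the pooled SMN IPs as in polysomes and 11.8, 11.9 and 11.6 times in IgG. Dbn1-003, a retained-intron form of 2119 nt, gave 6.46 and 8.72 times. Dbn1-005, a short coding form of 735 nt with 228 nt of 5′ UTR and 507 nt of coding sequence, gave 1.48 and 2.22 times, from 14, 6 and 26 reads in the SMN IPs and 28 in IgG. The other short forms, of 419 to 789 nt, lay between 0.910 and 1.61 times in the SMN IPs and between 1.18 and 2.70 times in IgG. The high counts of Dbn1 in the pulldowns were thus seen on the 4 longest forms. Actb and Actg1 showed no split of that size. Their transcripts of all kinds with more than 3 reads lay between 1.78 and 3.26 times in the SMN IPs and between 1.96 and 3.49 times in IgG. The short Actb-004 (401 nt) and Actb-006 (536 nt) were lower than Actb-001 in the SMN IPs, at 1.94 and 1.95 against 2.69 times. For Actg1 the shortest form, Actg1-009 (326 nt), was the highest, at 3.26 times.

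**Figure D4:**
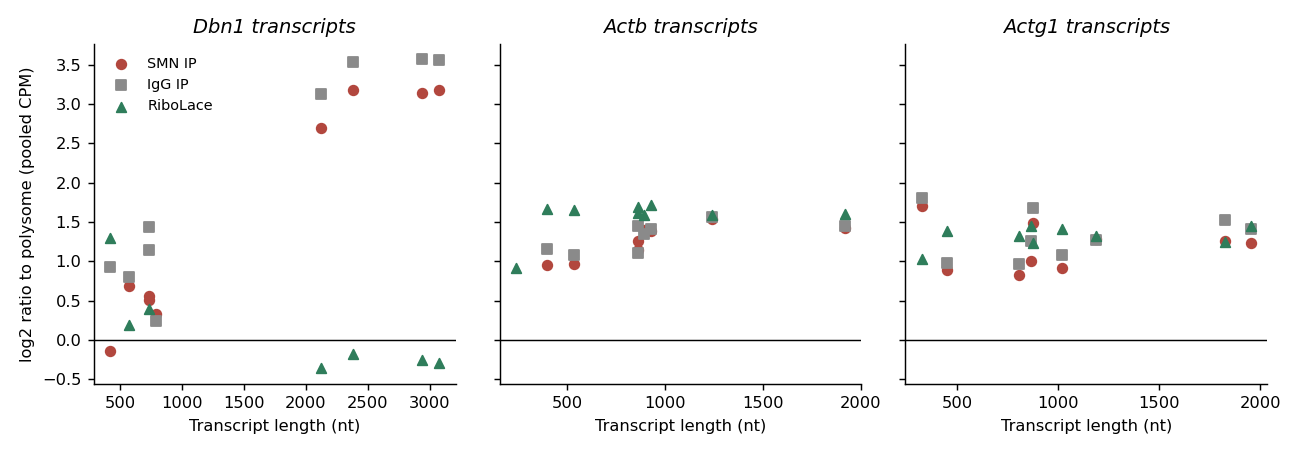
Log2 ratio of pooled CPM over polysomes for each transcript of Dbn1, Actb and Actg1 against transcript length in nt, with a symbol for each kind of library. Transcripts with 3 reads or fewer in a group are not drawn for it. The 4 longest Dbn1 transcripts lie near 3 in the IPs and below 0 in RiboLace, while the shorter ones lie lower in the IPs.

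The muscle actins and 1 pseudogene also held counts. Gm12715, listed as a processed pseudogene, had the highest scaled count of the pseudogenes 1128 nt long, the coding length of Actb and Actg1. It was picked by that rule, and its sequence was not compared with those of the actins. Gm12715 held counts equal to 50.5% to 59.9% of those of Actb in each library. The muscle actins held far fewer, at 3.68% to 8.74% of the Actb count for Acta1 and 1.38% to 5.99% for Acta2. The sources used here do not say how reads that match several genes were assigned, and whether these counts share reads with Actb was not tested, so the split among the actins is uncertain.

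The ratio within each pair of related genes was taken per coding kb as a description, since 3 libraries against 2 cannot give an exact permutation p under 0.05. Actb over Actg1 was 1.76, 1.96 and 1.70 in the SMN IPs, 1.57 in IgG, 1.93 and 1.48 in RiboLace, and 1.54 and 1.53 in polysomes. The SMN IPs lay above IgG and polysomes, and the range of the RiboLace pair overlapped that of the SMN IPs and held the IgG and polysome values. Tmsb10 over Tmsb4x was 1.91, 1.32 and 1.63 in the SMN IPs and 1.86 in IgG, but 1.00 and 1.10 in RiboLace and 0.918 and 0.973 in polysomes. Both kinds of pulldown thus lay above both kinds of library from diseased brains for this pair, which differ from them in protocol as well as genotype. Counting error was wide: the log2 ratio was 0.40 ± 0.30 (counting SE) in SMN IP replicate 2. In RiboLace it was 0.00 ± 0.36 and 0.13 ± 0.36, so the counting intervals overlap. Pfn1 over Pfn2 was 0.839, 0.537 and 0.881 in the SMN IPs, 0.674 in IgG, 0.895 and 0.471 in RiboLace, and 0.828 and 0.782 in polysomes, with no group apart. This ratio depended on the transcripts counted. With coding transcripts summed, its log2 value went from -0.27 and -0.35 to -0.99 in both polysome libraries. In RiboLace it went from -0.16 and -1.09 to -1.28 and -1.58.

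**Figure D5:**
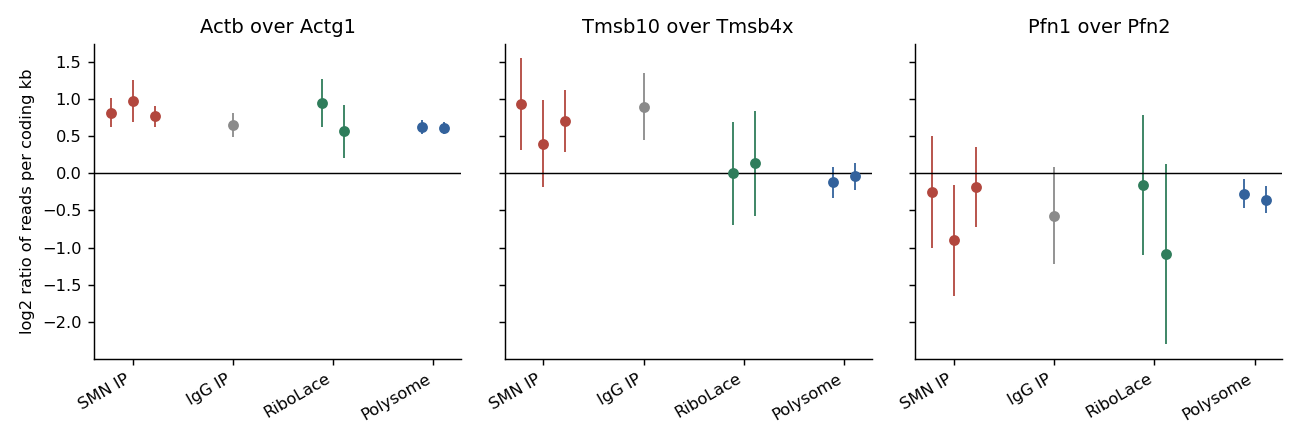
Log2 ratio of reads per coding kb within 3 pairs of related genes in each library. Points are libraries and lines are 95% intervals that cover counting error only. The points of Tmsb10 over Tmsb4x lie above 0 in all 4 IPs and near 0 in RiboLace and polysomes, and the interval of SMN IP replicate 2 takes in 0.

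Beyond the 8 genes, 78 genes of the actin system were read from 8 lists of related function. In SMN IP over IgG IP none of the 57 tested was called, and their median was -0.20. The gene with the smallest p in each list, none past the test, gave log2 fold changes from -1.27 ± 0.59 (SE) for Enah, which promotes filament elongation, to 1.10 ± 0.49 for Marcks, a membrane-linked filament crosslinker. Between them lay Actr3, an Arp2/3 subunit, at -0.97, Nckap1 of the WAVE complex at -0.75, Rhoa at -0.67, Acta1 at -0.22, Cap1 at 0.09 and Gsn at 0.49.

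In RiboLace over polysomes 72 of these genes were tested, with a median of 0.02. Of them 1 (1.39%, near the 1.31% of all genes) was called higher and 2 (2.78%, against 0.925% of all genes) lower. Among the 1003 genes at or above the level of the least covered of the 8, 76 were called higher and 34 lower. The part of level in the calls of these lists was not tested. The higher one of the 72 was the muscle actin Acta1 (1.20 ± 0.33, adjusted p = 0.0222), from 16 and 9 reads in RiboLace. The lower ones were Daam1, a formin that nucleates filaments (-1.37 ± 0.36, adjusted p = 0.0139), and Pak2, a kinase activated by Rac and Cdc42 (-1.98 ± 0.56, adjusted p = 0.028). None of the Arp2/3, WAVE or bundling genes passed, and the smallest p values there belonged to Actr3 (0.63, adjusted p = 0.425), Wasf1 (-0.47, adjusted p = 0.482) and Coro1b, at 0 reads in both RiboLace libraries and 64.4 TMM-scaled CPM in polysomes (adjusted p = 0.0631). Among monomer binders and severing factors, Twf2 gave 0.62 (adjusted p = 0.772) and Wdr1 0.59 (adjusted p = 0.385).

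In SMN IP over polysomes 63 were tested, with 14 called higher, 4 lower and a median of 0.11. These are 22.2% and 6.35% of those tested, against 16.4% and 11.1% over all genes. Of the 1016 genes at or above the level of the least covered of the 8, 25% were called higher. Calls also moved with coding length, with 14 of 151 genes higher under 300 nt and 656 of 1774 from 2400 nt. The part of level and length in the calls of these lists was not tested. In the filament side-binding and bundling list, the largest, 8 of 25 (32%) were higher with Dbn1 counted, and Tmod3, named only after its value was seen, lower. Flna, a filamin that crosslinks filaments, was higher by 2.93 ± 0.40 (adjusted p = 0.000187). Fscn1, the bundling protein fascin, was higher by 1.52 ± 0.25 (adjusted p = 0.000865) and Coro1c by 0.98 ± 0.22 (adjusted p = 0.00527). In the WAVE list Cyfip1 (1.59, adjusted p = 0.00077) and Cyfip2 (0.95, adjusted p = 0.0207) were higher and Brk1, a small subunit of the same complex, was lower (-1.40, adjusted p = 0.00882).

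The severing list also split. Gsn, the severing protein gelsolin, was higher (1.31, adjusted p = 0.00915), as was the cofilin cofactor Wdr1 (1.13, adjusted p = 0.00565), and Cfl2, the muscle cofilin, was lower (-1.19, adjusted p = 0.00707). Arpc1a was higher (0.99, adjusted p = 0.0146), as were the cofilin phosphatase Ssh2 (0.96, adjusted p = 0.0135) and Acta2 (0.90, adjusted p = 0.0358), whose groups overlapped. Pak2 was lower here too (-1.23, adjusted p = 0.00903). In the remaining lists the smallest p values, not past the test, were those of Twf1 (-0.96, adjusted p = 0.0595) and Evl (0.46, adjusted p = 0.16).

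Likeness among the genes was described by Pearson's r of log2 CPM over the 8 libraries, which share depth and protocol within a group, so that no p is given. Actb and Actg1 had r = 0.98, Tmsb4x with Cfl1 0.96, Cfl1 with Pfn2 0.96 and Tmsb10 with Actb 0.89. Dbn1 ran against the profilins, with r = -0.57 for each. Of 8480 coding genes with a mean log2 CPM of at least 5, the 3 most like each were named. For Actb they were Mybbp1a (0.986), Dlgap1 (0.981) and Sept2 (0.980), and for Actg1 Sept2 (0.988), Dlgap1 (0.986) and Inpp4a (0.983). For Tmsb10 they were Tubb6 (0.987), Pomgnt1 (0.987) and Ilkap (0.983), and for Tmsb4x Grik1 (0.991), Dennd1a (0.987) and Adarb2 (0.983). Cfl1 was followed by Ptn (0.985), Cnot6 (0.981) and Psmg3 (0.981), Pfn1 by Mmd (0.981), Kptn (0.970) and Psat1 (0.969), and Pfn2 by Ptn (0.988), Pitpnm3 (0.984) and Slc11a2 (0.977). Dbn1 was followed by Apc2 (0.991), Col3a1 (0.989) and Cep170b (0.983).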

How the data were processed

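The deposited values are the authors' raw counts of footprint reads for each Ensembl transcript, beside its transcript, UTR and coding length. The submitters' processing notes name Trimmomatic 0.36, Bowtie2 2.2.6, SAMtools and the GRCm38.p4 build. For each gene the coding transcript with the largest total, after scaling each library to the same depth, was used. Counts were tested in R 4.3.3 with edgeR 4.0.16 (two-sided robust quasi-likelihood test on the groups compared, scaled by TMM, low counts removed by filterByExpr at its minimum of 10), and a Benjamini-Hochberg adjusted p under 0.05, over all genes tested, counted as a call. The SE was obtained as the log2 fold change over the square root of F. Levels per library use library totals, and means beside a test are TMM-scaled where stated.

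The 8 genes and the gene lists were chosen with earlier results of these data known. From each actin list up to 4 called genes with the smallest p were named, or the 1 with the smallest p, and for each of the 8 genes its 3 most correlated coding genes (log2 CPM, prior count 2; predicted genes left out). The values of 1 gene that this rule named are not reported here. Alternatives were DESeq2 1.42.0, limma-voom (limma 3.58.1), library totals, other filters, all libraries in 1 fit, other transcript choices, left-out libraries and the replicate number as a block. The scripts were tested on simulated counts. Where nothing states separate animals, p-values measure only the spread between these libraries. Intervals of single libraries cover counting error only. Python 3.11.15, pandas 2.3.3 and matplotlib 3.10.9 served for tables and plots.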

Additional observations from a re-analysis of the deposited data

How the results depend on the processing

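The 8 genes called higher in RiboLace over polysomes numbered 5 in the main analysis, 4 to 6 in other settings and 0 with limma-voom. For SMN IP over polysomes they numbered 4, with 6 under DESeq2 and limma-voom and 1 to 6 when a library was left out. No gene of the 8 was called in SMN IP over IgG IP under any of the 11 alternatives run (Pfn1 was tested in 10 of them), and leaving out the lone IgG library gives no value. Of the log2 fold changes of the 8 genes, 266 alternatives kept direction and side of the threshold, 8 passed it newly, 16 lost it and 13 turned sign; the cause was not tested. Those that turned were never called. In SMN IP over IgG IP, Tmsb4x turned from 0.02 to -0.0084 with library totals, -0.019 with no filter, -0.061 with a minimum count of 50 and -0.19 with summed transcripts, and ranged from -0.078 to 0.12 with a library left out; Actb ranged from -0.24 to 0.18 and Actg1 from -0.44 to 0.038. In RiboLace over polysomes Pfn1 ranged from -0.15 to 0.72. In SMN IP over polysomes Pfn1 gave -0.12 with library totals, -0.032 with a minimum count of 50 and -0.00085 to 0.24 with a library left out, and Pfn2 gave -0.022 with library totals. Levels and ratios within pairs were less stable. With coding transcripts summed, 8 group means of the ratios moved by more than their SD (counting interval for IgG) and 4 did not. By the same rule, TMM scaling or summed transcripts moved 74 group levels of the 8 genes and left 54.

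Replicate numbers are shared between groups, but same-numbered libraries gave correlations of 0.168 (RiboLace and polysome) and -0.054 (SMN IP and polysome) over only 2 pairs, so they were not taken as pairs. With the replicate number as a block, 5 of the 8 genes stayed called in RiboLace over polysomes, with 58 genes higher and 0 lower over the table. In SMN IP over polysomes 0 of the 8 were called under the block (Dbn1 3.07, adjusted p = 0.0604; Actb 1.37, adjusted p = 0.332; Actg1 1.09, adjusted p = 0.365; Tmsb10 1.21, adjusted p = 0.317), with 9 higher and 0 lower over the table. The block kept only replicate numbers present in both groups, so SMN IP replicate 3 was left out of that fit as well. Leaving out that replicate without a block kept 3 of the 8 called. No paired analysis was possible for SMN IP over IgG IP because they share 1 number.

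Over all genes, the RiboLace calls of 142 higher and 100 lower became 179 and 5 with DESeq2, 0 and 0 with limma-voom, 258 and 75 with a minimum count of 50, 69 and 1 with all libraries in 1 fit, 146 and 54 with transcripts chosen by raw total, 243 and 51 with summed transcripts, and 31 to 111 and 1 to 72 with a library left out. The SMN IP over polysome calls of 1062 and 719 became 850 and 378 with DESeq2, 1017 and 358 with limma-voom, 636 and 1578 with library totals, 908 and 1215 with no filter, 194 and 166 with a minimum count of 50, 681 and 434 with summed transcripts, and 103 to 1755 and 38 to 1593 with a library left out. The SMN IP over IgG IP calls were 0 to 2 higher and 0 to 3 lower. Depth limits the RiboLace values most: Dbn1, Pfn1 and Pfn2 rest on 8 to 19 reads per library there.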
